A study of Mus musculus with 6 samples.

Results

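The immediate early genes described here were Fos, Fosb, Jun, Junb, Jund, Egr1, Ier2, Dusp1, Zfp36 and Nr4a1. They were taken by gene name from 2 count tables of common myeloid progenitors, the marrow cells upstream of the granulocyte, monocyte, red cell and platelet lineages. All 10 were among the 13932 genes of the gene table, and 8 of them had rows in the splice junction table, 22 rows of 151811. The progenitors (Lineage-, c-Kit+, Sca-1-, CD34+, Fcgamma-) were sorted from recipient mice transplanted with marrow that carried rtTA, the doxycycline-dependent activator, and a U2AF1 transgene. In 1 group the transgene was U2AF1(S34F)/rtTA and in the control group U2AF1(WT)/rtTA, called S34F and WT below, so the controls, too, carried rtTA and an induced transgene. All mice had engrafted for more than 6 weeks and then received doxycycline chow for 5 days, and the 3 libraries of each genotype each came from marrow pooled over 4 to 5 mice. The sources used here do not give the age or strain of the mice. The genotype comes from the sample titles, because the genotype entry reads S34F for all 6 samples.

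Immediate early genes are switched on within minutes of a growth factor, cytokine or stress signal, without new protein synthesis, and most of their mRNAs are short lived. Fos and Fosb pair with Jun, Junb and Jund to form the transcription factor AP-1. Egr1 and Nr4a1 are further inducible transcription factors, Ier2 is a small nuclear protein induced with them, Dusp1 is a phosphatase that switches off MAP kinases, and Zfp36 (tristetraprolin) binds AU-rich mRNAs and speeds their decay. In blood progenitors these genes are known to respond to the handling of cells as well as to signals in the marrow. U2AF1 belongs to the U2AF splicing factor and reads the AG that closes an intron, and S34F, which recurs in myelodysplastic syndromes, is known to change its preference for the base just before that AG.

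The libraries held from 46827909 to 51862032 gene counts in S34F and from 54727541 to 94562984 in WT, so every S34F library was shallower than every WT library. Counts of U2af1 were between 6159 and 6311 in S34F and between 5791 and 12060 in WT, and do not separate the transgene from the mouse gene, so they do not check the labels. The Y-linked gene Ddx3y had 5714 counts in S34F replicate 1, 5580 in WT replicate 1 and 0 in the other libraries. Xist, made from the inactive X of female cells, had 1 and 5 counts in those 2 libraries and 67264 to 128694 in the others, so the cells of replicate 1 were nearly all male, S34F and WT alike, and the remaining 4 libraries female. Mitochondrially encoded genes took 2.44% to 2.77% of the counts in S34F and 1.27% to 2.04% in WT. All 13 markers of the sorted progenitor were detected in every library, with a summed level of 7775 to 10937 CPM in S34F and 7206 to 10907 CPM in WT. Of the T and NK cell markers, 3 of 9 had a row, and the CD3 genes were not among them. CPM here means gene counts divided by library size times edgeR's TMM factor. Gene positions below are those of the mm9 annotation.

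Together the 10 genes took 0.246%, 0.134% and 0.204% of all gene counts in S34F replicates 1, 2 and 3 and 0.296%, 0.225% and 0.204% in the WT replicates. S34F replicate 2 was the lowest of the 6 libraries and WT replicate 1 the highest. S34F replicate 1 lay within the WT range and S34F replicate 3 at its lower edge. Summed as CPM, S34F replicate 3 was at 2033, just below the lowest WT library, replicate 3, at 2053. None of the 10 genes passed the main test between genotypes, which had no term for sex or replicate. edgeR's quasi-likelihood test with Benjamini-Hochberg adjustment called 0 of the 10 at 0.05, and 0 of all 13905 genes tested (0%), with 1265 genes at an unadjusted p under 0.05. All 10 passed the filter on low counts. The estimate was lower in S34F for 9 of the 10 and higher for Dusp1. The median log2 fold change was -0.29, beside -0.0052 over all genes tested, and single values ran from -0.51 to 0.03.

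Fos (chromosome 12, 86814840 to 86818223), an AP-1 partner strongly induced by signals, had 575, 296 and 495 CPM in S34F replicates 1 to 3 and 633, 573 and 455 CPM in WT. The genotypes overlapped, with S34F replicate 2 below all other libraries. The log2 fold change was -0.28 with a standard error of 0.24 (edgeR adjusted p = 0.688). Fosb (chromosome 7, 19888070 to 19895394), its close relative, had 212, 50.5 and 94.4 CPM in S34F and 254, 97.1 and 71.4 CPM in WT. Replicate 1 was far above the others in both genotypes, and the genotypes overlapped across most of their range. Its log2 fold change was -0.24 with a standard error of 0.60, the largest standard error of the 10 (edgeR adjusted p = 0.897). Per kilobase of exon, Fosb reached 23.1% of the Fos level in S34F replicate 1 and 25.2% in WT replicate 1, against 10.7% and 12.0% in the other S34F libraries and 10.6% and 9.83% in the other WT libraries. The share of Fosb was thus high in the replicate 1 libraries, the male ones, in both genotypes, and overlapped between S34F and WT. The part of sex in this was not tested.

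Jun (chromosome 4, 94715725 to 94718913), a DNA-binding partner of Fos, had the highest CPM of the 10, with 879, 530.0 and 717 CPM in S34F and 1019, 899 and 837 CPM in WT. S34F replicate 1 lay within the WT range and the other S34F libraries lay below it. The log2 fold change was -0.37 with a standard error of 0.18 (edgeR adjusted p = 0.569). Junb (chromosome 8, 87500811 to 87502617), a Jun protein known to restrain myeloid cell growth, had 138, 109 and 134 CPM in S34F and 183, 146 and 148 CPM in WT. Every S34F library was below every WT library, though the gap between the nearest libraries was small. The log2 fold change was -0.32 with a standard error of 0.13 (edgeR adjusted p = 0.548). Jund (chromosome 8, 73221638 to 73224515), expressed more steadily than its relatives in most cells, had 158, 104 and 161 CPM in S34F and 260.4, 172 and 171 CPM in WT. Here too the genotypes did not overlap, and WT replicate 1 stood above the rest. Its log2 fold change of -0.51 with a standard error of 0.22 was the largest in size of the 10 (edgeR adjusted p = 0.552).

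Egr1, a zinc finger transcription factor, had 89.2, 30.8 and 45.7 CPM in S34F and 94.9, 45.6 and 37.0 CPM in WT. As for Fosb, replicate 1 was high in both genotypes, and the log2 fold change was -0.10 with a standard error of 0.46 (edgeR adjusted p = 0.949). Nr4a1 (chromosome 15, 101097277 to 101105223), an orphan nuclear receptor, had the lowest CPM, with 9.09, 3.58 and 7.68 CPM in S34F and 11.1, 5.25 and 8.77 CPM in WT. Its genotypes overlapped, and the log2 fold change was -0.30 with a standard error of 0.39 (edgeR adjusted p = 0.782). Ier2 (chromosome 8, 87185230 to 87186751) had 147, 119 and 151 CPM in S34F and 193, 160 and 163 CPM in WT, with every S34F library below every WT library. The log2 fold change was -0.31 with a standard error of 0.13 (edgeR adjusted p = 0.548).

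Dusp1 and Zfp36 are known to end the response. Dusp1 (chromosome 17, 26642535 to 26645464) had 136, 63.0 and 151 CPM in S34F and 149, 98.1 and 95.9 CPM in WT. Its S34F libraries spanned the whole WT range, with a log2 fold change of 0.03 (standard error 0.32, edgeR adjusted p = 0.983). Zfp36 (chromosome 7, 29161803 to 29164274) had 99.8, 51.2 and 76.9 CPM in S34F and 139.8, 63.3 and 64.2 CPM in WT. The genotypes overlapped, with WT replicate 1 alone above 100 CPM, and the log2 fold change was -0.23 with a standard error of 0.36 (edgeR adjusted p = 0.824).

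**Figure D1:**
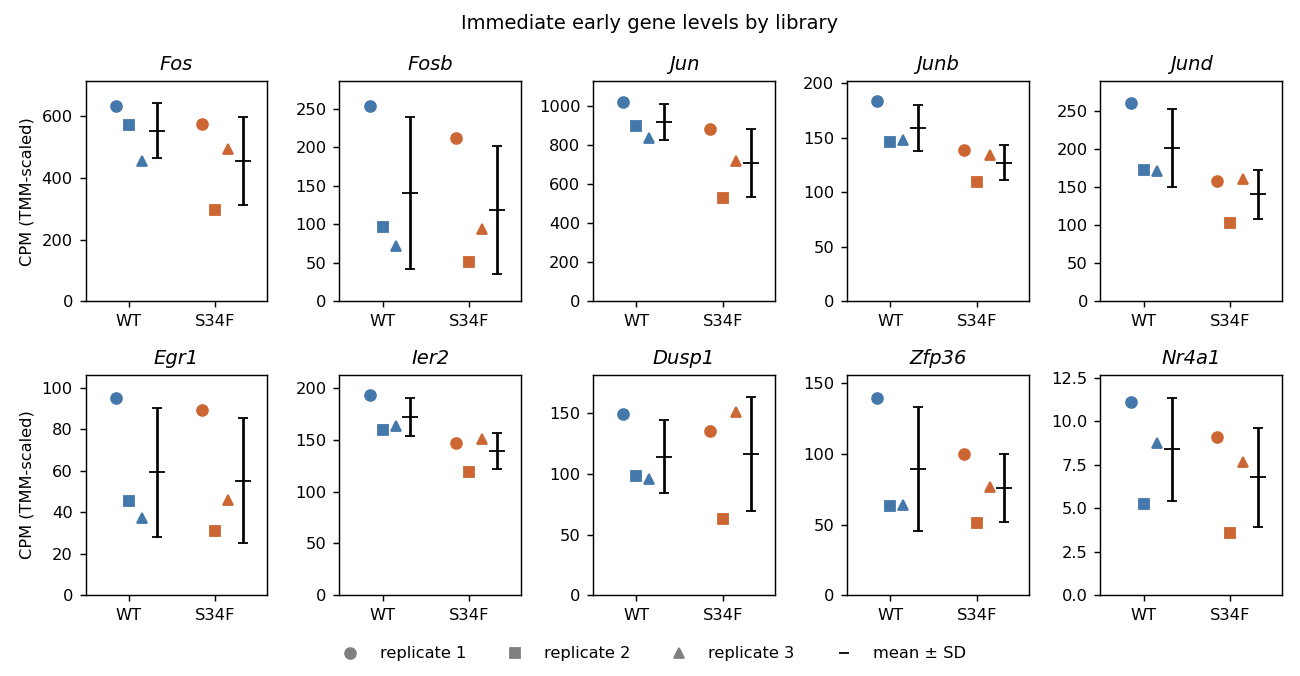
Level of each immediate early gene in CPM (linear axis from 0) in the 3 WT and 3 S34F libraries. Symbols mark the replicate and bars the mean and SD of 3 libraries. S34F replicate 2 is the lowest S34F library and WT replicate 1 the highest WT library in all 10 panels.

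Junb, Jund and Ier2 were the 3 of 10 with every S34F library below every WT library, an order held by 8.47% of all genes tested. For each of these 3 the exact two-sided permutation test of CPM gave p = 0.1, the smallest that 3 libraries against 3 allow, and for the other 7 it gave 0.2 to 0.9. Junb and Ier2 were lower at an unadjusted edgeR p under 0.05, which made 2 of the 10 beside 4.7% of all genes. Their unadjusted p-values in edgeR's model over all genes were 0.0453 and 0.0435, and that of Jund was 0.0516. DESeq2's default test also called 0 of the 10 after adjustment, while it called 0.689% of all genes. It had 3 of the 10, Junb, Jund and Ier2, at an unadjusted p under 0.05, beside 10.3% of all genes. In the authors' deposited table the log2 fold changes had the same signs, with -0.27 for Junb (adjusted p = 0.476), -0.27 for Ier2 (adjusted p = 0.475) and -0.37 for Jund, for which that table gives no p. A block for replicate number, which also sets the male libraries apart, was run as an alternative. With it edgeR called 0 of the 10, beside 0.036% of all genes. DESeq2 with this block called 1 of the 10, Jund (adjusted p = 0.0454), beside 3.16% of all genes. Whether libraries of the same number share a source was not tested. In a bulk sample, fewer cells with a gene switched on and less RNA per cell cannot be told apart.

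Levels of different genes can be compared only per length of transcript. On CPM per kilobase of exon, the order in S34F was Jun (222 ± 54.8, mean ± SD, n = 3), Fos (193 ± 61.1), Ier2 (91.3 ± 11.5), Junb (70.4 ± 8.70), Jund (48.9 ± 11.2), Dusp1 (43.2 ± 17.4), Zfp36 (42.4 ± 13.6), Fosb (31.7 ± 22.3), Egr1 (17.8 ± 9.78) and Nr4a1 (2.74 ± 1.16). In WT the values were 288 ± 28.9 for Jun, 236 ± 38.4 for Fos, 113 ± 12.1 for Ier2, 88.0 ± 11.6 for Junb, 69.9 ± 17.8 for Jund, 49.7 ± 24.5 for Zfp36, 42.4 ± 11.2 for Dusp1, 37.6 ± 26.4 for Fosb, 19.1 ± 10.1 for Egr1 and 3.39 ± 1.20 for Nr4a1. The order was therefore the same in both genotypes except that Dusp1 and Zfp36 changed places. The SDs of Jun and Fos overlapped in both genotypes, as did those of Jund, Dusp1, Zfp36, Fosb and Egr1, each against its neighbour in the order. Junb and Jund were apart by more than their SDs in S34F only. These SDs are between libraries, and the genes share the libraries. Within each single library of both genotypes, Jun was above Fos, Junb above Jund, Jund above Dusp1 and Fosb above Egr1. The order of Dusp1, Zfp36 and Fosb changed between libraries. Nr4a1 lay below Egr1 by more than their spread in both. The summed level of Fos and Fosb over that of the 3 Jun genes was 0.739, 0.530 and 0.663 in S34F and 0.659, 0.639 and 0.527 in WT, so the balance of the AP-1 partners overlapped between genotypes.

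The 10 genes varied together from library to library within each genotype. S34F replicate 2 was the lowest S34F library for 10 of 10, an order that 37.0% of all genes had, and WT replicate 1 was the highest WT library for 10 of 10, against 39.9% of all genes. Both held for 10 of 10 and for 22.0% of all genes. S34F replicate 1 was the highest of its genotype for 7 of the 10 and replicate 3 for Jund, Ier2 and Dusp1. In WT the lowest library was replicate 3 for 6 of the 10 and replicate 2 for Junb, Ier2, Zfp36 and Nr4a1.

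**Figure D2:**
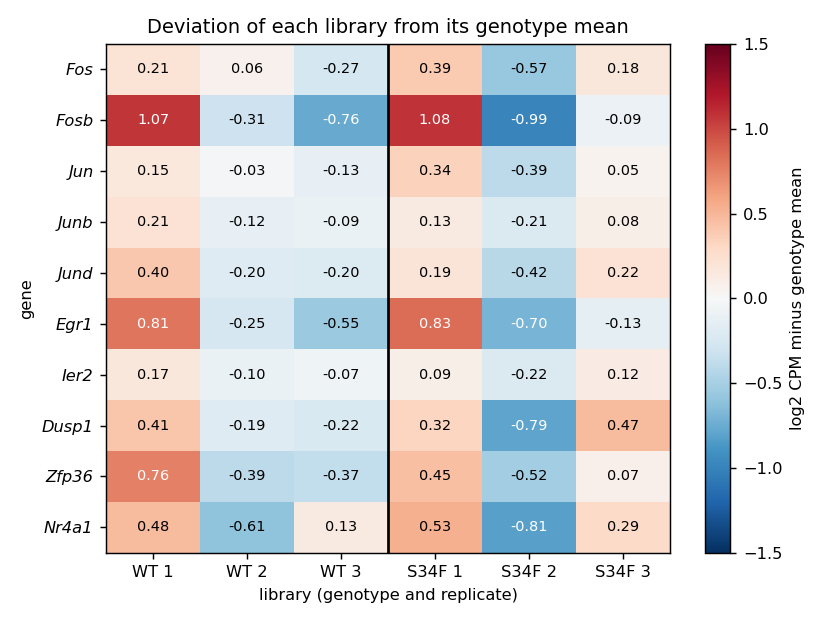
Each cell gives the log2 CPM of a gene (row) in a library (column) minus the mean of the 3 libraries of its genotype, in red above and blue below the mean. The S34F 2 column is negative and the WT 1 column positive for all 10 genes, with Fosb at -0.99 and 1.07.

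The likeness of 2 genes was measured as the correlation of these deviations from the genotype mean. It was positive for 45 of 45 pairs, from 0.73 to 0.998 with a median of 0.88. These are descriptions with no test: they rest on the same 6 libraries, whose deviations sum to 0 within each genotype, and the genes share those libraries. Fosb was most like Egr1 (0.998), Jund most like Ier2 (0.992), Junb most like Jund (0.992) and Fos most like Jun (0.969). Dusp1 was most like Ier2 (0.979), Zfp36 most like Junb (0.973), and Nr4a1, the least abundant, most like Ier2 (0.909). The weakest pair was Fos with Nr4a1 (0.735).

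Outside the 10, the genes most like their average were sought among 9156 genes of at least 10 CPM. These were Kctd12 (0.999), Camk1d (0.998), Pgm2l1 (0.996), Rac1 (0.996), Tlk1 (0.996), Sept1 (0.996), Slc45a3 (0.996) and Ephb2 (0.995). Over all 9156 genes this likeness had a median of -0.09, with 5% of genes below -0.92 and 5% above 0.89, and 132 genes were above 0.95. Kctd12, a potassium channel domain protein, had 122, 81.8 and 114 CPM in S34F and 113, 84.6 and 82.8 CPM in WT, and so shared the order of the libraries with a smaller range than Fosb or Egr1.

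The size of these swings differed widely among the 10. The highest library exceeded the lowest of the same genotype by 1.27 to 4.20 times in S34F and by 1.21 to 3.56 times in WT, with Fosb at the top in both. The SD of log2 CPM within genotype was 1.00 for Fosb, 0.75 for Egr1 and 0.64 for Nr4a1, at the 97.3, 93.9 and 91.3 percentiles of all genes tested. It was lowest for Ier2 (0.17) and Junb (0.18). The median over the 10 was 0.47, against 0.21 over all genes. Because spread depends on level, edgeR's coefficient of variation was also set against its trend at the same level. Fosb was at 3.31 times the trend, Egr1 at 2.47, Zfp36 at 2.01, Dusp1 at 1.88, Nr4a1 at 1.39, Jund at 1.33, Fos at 1.32, Jun at 1.04, Junb at 0.917 and Ier2 at 0.884. For 7 of the 10 this ratio was above the 90th percentile of all genes and for all 10 above the 50th. The 3 genes whose genotypes did not overlap included Junb and Ier2, the pair with the least spread.

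**Figure D3:**
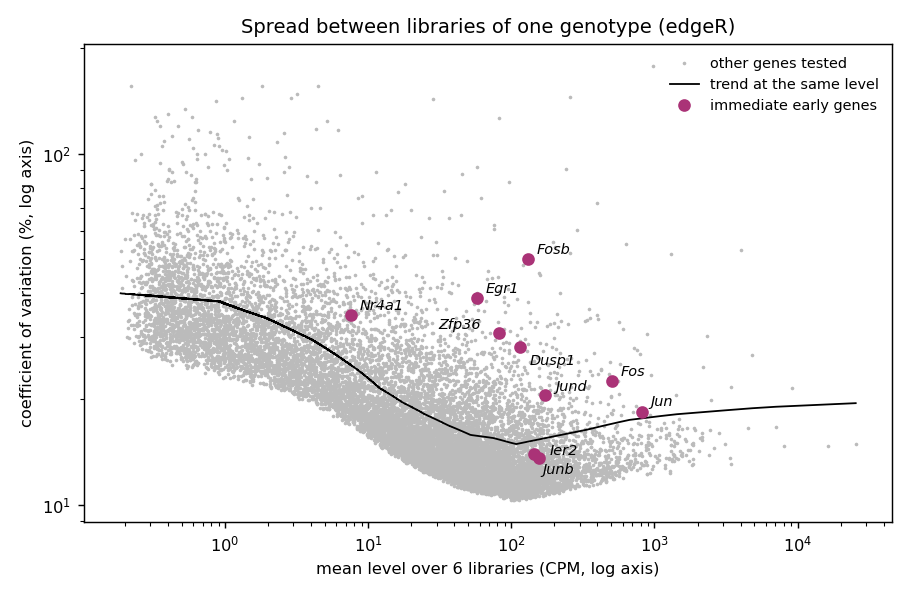
Coefficient of variation between libraries of a genotype, as estimated by edgeR (percent, log axis), against the mean level over 6 libraries (CPM, log axis). Grey points are the other genes tested and the line is the trend over them. Fosb lies highest above the line, at 50.1%, and Junb and Ier2 lie just below it.

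The estimates moved with single libraries in both directions. Without S34F replicate 2 the median log2 fold change of the 10 was -0.03, with 6 lower and 4 higher, and Fosb, Egr1, Dusp1 and Nr4a1 were the higher ones. Without WT replicate 1 it was -0.11, again with 6 lower and 4 higher, now with Zfp36 in place of Nr4a1. Without S34F replicate 1 it was -0.52 with 10 of 10 lower, and without S34F replicate 3 it was -0.36 with 9 lower. Without WT replicate 2 and WT replicate 3 in turn it was -0.38 and -0.39, each with 10 of 10 lower. Fos, Jun, Junb, Jund and Ier2 kept a lower estimate under each of the 15 alternative settings. Their values over these settings ran from -0.49 to -0.05 for Fos, from -0.56 to -0.20 for Jun, from -0.39 to -0.21 for Junb, from -0.63 to -0.28 for Jund and from -0.38 to -0.21 for Ier2. Without both male libraries the median was -0.27, with 8 lower and 2 higher and 0 of the 10 called. Over all genes, 1172 (8.42%) were called without WT replicate 1 and 599 (4.30%) without both replicate 1 libraries, and in each case 0 of the 10 were among them.

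**Figure D4:**
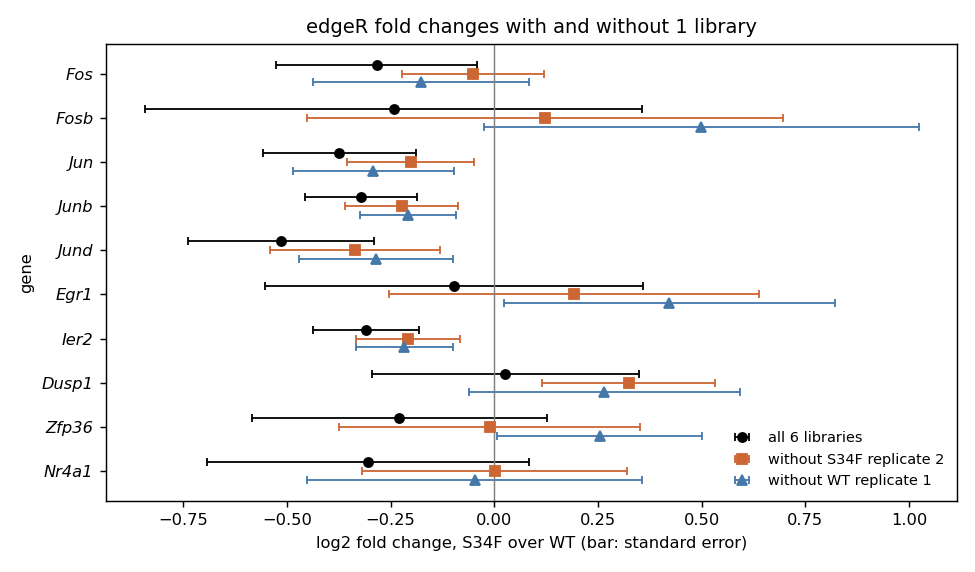
edgeR log2 fold change of S34F over WT for each gene (points) with its standard error (bars), from all 6 libraries, without S34F replicate 2 and without WT replicate 1. Fosb moves from -0.24 to 0.50 without WT replicate 1, while Jun, Junb, Jund and Ier2 stay left of 0 in all 3 fits.

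Markers of other cell types also varied between these libraries. Dendritic cell markers, all 10 with a row and none at 0, summed to 107, 51.9 and 73.7 CPM in S34F and 379, 186 and 276 CPM in WT. The highest S34F library was below the lowest WT library. Megakaryocyte markers (5 of 6 with a row, none at 0) summed to 106, 85.7 and 114 CPM in S34F and 167, 124 and 148 CPM in WT. Here too the highest S34F library was below the lowest WT library. Stromal and endothelial markers (5 of 9 with a row, none at 0) summed to 231, 179 and 241 CPM in S34F and 269, 202 and 229 CPM in WT. Col1a1, Col3a1, Lepr and Cdh5 had no row, so this sum leaves them out. For all 3 of these lists S34F replicate 2 was the lowest and WT replicate 1 the highest library, as for the immediate early genes. Monocyte and macrophage markers (9 of 10 with a row, none at 0) went the other way in S34F, with 1337, 2203 and 912 CPM, and had 918, 1537 and 884 CPM in WT. Neutrophil markers (7 of 7 with a row, none at 0) were also highest in replicate 2 of each genotype, with 1059, 1272 and 907 CPM in S34F and 854, 1388 and 777 CPM in WT. Mast cell and basophil markers (6 of 6 with a row, none at 0) had 459, 206 and 690 CPM in S34F, with replicate 2 lowest of all 6 libraries, and 423, 606 and 277 CPM in WT. The part of these cells, of depth and of the mitochondrial share in the pattern of the 10 genes was not tested.

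The genes around the response did not pass the test either. Of 38 further immediate early genes, 35 were measured, and 0 passed after adjustment. At an unadjusted p under 0.05, 4 were lower and 0 higher, with a median log2 fold change of -0.07. Over all genes tested, 611 were higher and 654 lower at that level, with the median of -0.0052 given above. The 4 were Ppp1r15a (-0.56), which restarts translation after stress, Sgk1 (-0.34), a kinase, Pim1 (-0.26), a survival kinase induced by cytokines, and Rhob (-0.25), a small GTPase. The most abundant were Mcl1, a survival factor of the BCL2 family (-0.08), and Btg2, which slows proliferation (-0.52, edgeR adjusted p = 0.552). S34F replicate 2 was lowest and WT replicate 1 highest for 18 of these 35 genes, or 51.4%, against 22.0% of all genes and 10 of 10 here.

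Other AP-1 partners and regulators of Jun had 18 rows, with more than 1 row for Atf7. At an unadjusted p under 0.05, 1 row was higher and 1 lower, and the median over the 18 rows was 0.01. Atf2, which pairs with Jun, was at 0.49, and Batf3, a partner found in dendritic cells, at -2.37 with a mean of 0.295 CPM in S34F and 1.54 CPM in WT. Itch, a ligase that marks Jun proteins for destruction (0.06), and Cops5, a Jun co-activator (-0.25), were the most abundant. Of 26 ERK, SRF and CREB inputs, which drive the promoters of these genes, 2 were higher and 2 lower, with a median of 0.07. Among them were Braf, a kinase upstream of ERK, at 0.22, Mapk14 (p38) at -0.31 and Rps6ka5, a kinase of CREB and histone H3, at -0.32. Mapkapk2, which phosphorylates Zfp36, was the most abundant of them at 0.12. None of these passed after adjustment.

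Of 9 measured MAP kinase phosphatases, 1 was higher at an unadjusted p under 0.05, Dusp7 at 0.53, and the median was 0.11. Dusp2 and Dusp6 were the most abundant, at -0.12 and 0.06. Of 21 genes of the Zfp36 family and mRNA decay, 1 was higher and 2 lower, with a median of -0.0024. They were Dcp2, a decapping enzyme, at 0.35, Xrn1, the exonuclease that follows decapping, at -0.34, and Tob2, a deadenylation adaptor, at -0.67. Cnot1, the scaffold of the deadenylase that Zfp36 recruits, was at -0.20, and Zfp36l2, a relative of Zfp36, at 0.41. Of 18 measured heat shock genes, 3 were higher and 0 lower, with a median of 0.10. They were Hspa1a, an inducible chaperone, at 1.37, Dnaja1 at 0.64 and Hspd1 at 0.38. Hspa8 and Hsp90ab1 were at 0.09 and 0.05. None of these lists had a gene that passed edgeR's adjusted threshold. The library order of the 10 genes was held by 7 of the 18 rows of AP-1 partners and Jun regulators (38.9%). It was held by 10 of 26 ERK, SRF and CREB inputs (38.5%) and 5 of 9 phosphatases (55.6%). For decay genes it was 9 of 21 (42.9%) and for heat shock genes 5 of 18 (27.8%), beside the 22.0% of all genes. The lists share genes, such as Dusp2, which is counted among the further immediate early genes and among the phosphatases.

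Since the mutation is in a splicing factor, the introns of the 10 genes were examined next. Junb and Ier2 had no junction row. The rows of Fos, Fosb, Egr1, Dusp1, Zfp36 and Nr4a1 were GT-AG introns, and those of Jun and Jund were not. The 20 last intron bases and 3 first exon bases at the acceptors of Fos and Fosb (mm9, introns in order of transcription) are shown because these hold each acceptor among the 10 genes that has T before AG. The last 3 intron bases are in capitals.
Fos intron 1, chr12:86815865-86815887, plus strand: ctctttttgttttgtttCAGgac
Fos intron 2, chr12:86816522-86816544, plus strand: ttggtccttttcttctaTAGcta
Fos intron 3, chr12:86816747-86816769, plus strand: ttatatctctccctatgCAGgag
Fosb intron 1, chr7:19892787-19892809, minus strand: gtgtatgtctcaccccgTAGgag
Fosb intron 2, chr7:19892013-19892035, minus strand: ggtccttatctctgactCAGctt
Fosb intron 3, chr7:19890649-19890671, minus strand: gccctgctgggatccatTAGgaa
Of the 18 annotated GT-AG introns of the 6 genes, 15 had C before the AG and 3 had T, Fos intron 2 and Fosb introns 1 and 3. This counts introns, and the CAG that ends Fos intron 1 is in it for each of its annotated donors. Over the 121895 acceptors of the junction table with AG, each counted 1 time, 62.7% had C, 31.1% T and 5.89% A.

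Use of these introns did not differ detectably. edgeR's test of each junction against the others of its gene covered 16 junctions of Fos, Fosb, Dusp1 and Nr4a1, and called 0 of them after adjustment, beside 0.0658% of the 124643 junctions tested. At an unadjusted p under 0.05 there were 0 of 16, beside 1.31% of all, and the lowest unadjusted p was 0.310. Genes with a single junction row, Egr1 and Zfp36 among them, could not be tested this way. The authors' deposited table gives a test for 18 junctions of the same 4 genes, with a lowest adjusted p of 0.653.

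The intron of Fos that ends in TAG, intron 2, had 2652, 1081 and 2068 reads in S34F and 3417, 3275 and 4730 in WT. It held 33.6%, 31.3% and 35.0% of the Fos junction reads in S34F and 34.1%, 34.9% and 39.0% in WT, and the genotypes overlapped. Intron 1, which ends in CAG, held 29.7% ± 1.43 in S34F and 27.6% ± 2.07 in WT, and intron 3, also CAG, 34.7% ± 2.13 and 34.3% ± 0.529 (mean ± SD, n = 3). An alternative donor inside intron 1, which leaves an intron of 139 nt, was used in 7.28% ± 0.772 of reads into exon 2 in S34F and 7.06% ± 1.10 in WT (exact permutation p = 0.8). For Fosb, the TAG introns 1 and 3 held 18.7% ± 7.35 and 32.2% ± 1.07 of its junction reads in S34F and 19.1% ± 5.91 and 29.9% ± 6.37 in WT, so the spread between libraries exceeded the difference.

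The Nr4a1 junction with the lowest p was intron 1, of 3111 nt at chromosome 15, 101097403 to 101100513. It had 17, 1 and 13 reads in S34F and 28, 14 and 48 in WT, or 9.60%, 1.96% and 8.28% of the Nr4a1 junction reads against 12.0%, 13.3% and 17.8%. The genotypes did not overlap, but the counts were low and the intron was picked for the lowest p of the 16 junctions tested. The shares of all the others overlapped between genotypes. How many of all junctions had shares that did not overlap was not counted. The log2 difference in edgeR's model was -0.83, with the unadjusted p of 0.310 given above and an adjusted p of 1. The authors' deposited table gives p = 0.0432 for it and an adjusted p of 0.653.

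How much of each gene was seen as spliced reads also overlapped between genotypes. Junction reads per gene read were 0.263, 0.252 and 0.237 for Fos in S34F and 0.287, 0.230 and 0.283 in WT. Dusp1 had 0.200, 0.158 and 0.152 against 0.226, 0.149 and 0.208, and Fosb 0.108, 0.0958 and 0.0856 against 0.136, 0.0870 and 0.142. The means of S34F and WT were 0.0226 and 0.0179 for Egr1, 0.0779 and 0.0830 for Zfp36 and 0.361 and 0.329 for Nr4a1. Over all genes they were 0.863 and 0.867. For 0 of the 8 genes with a junction row were the genotypes apart, with exact permutation p-values from 0.2 to 0.6. The 8 include Jun and Jund, whose rows were not GT-AG introns. How many of all genes were apart in this measure was not counted.

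**Figure D5:**
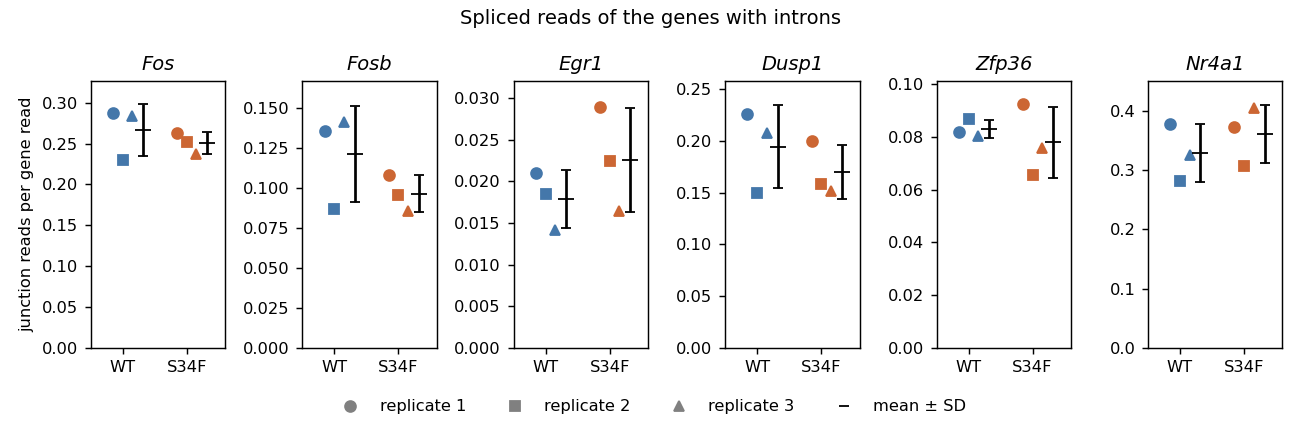
Junction reads per gene read (linear axis from 0) of the 6 genes with GT-AG introns in each WT and S34F library. Symbols mark the replicate and bars the mean and SD of 3 libraries. The genotypes overlap in all 6 panels, for example 0.237 to 0.263 against 0.230 to 0.287 for Fos.

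Sequences before the start sites were read for what genes that move together hold in common. RefSeq promoters (GRCm38.p6) were matched for 8 of the 10, all but Egr1 and Ier2. The 250 bases before the start are shown for Fos, which holds TGACG and TATAAA, for Dusp1, the only one of the 8 with TGACGTCA, and for Zfp36, the only one with the CArG box. Capitals mark TGACG, the core of the cyclic AMP response element, the full element TGACGTCA that contains it, the TATA box TATAAA and the CArG box bound by serum response factor, and the GC box is not marked.
Fos, chr12:85473640-85473889, plus strand: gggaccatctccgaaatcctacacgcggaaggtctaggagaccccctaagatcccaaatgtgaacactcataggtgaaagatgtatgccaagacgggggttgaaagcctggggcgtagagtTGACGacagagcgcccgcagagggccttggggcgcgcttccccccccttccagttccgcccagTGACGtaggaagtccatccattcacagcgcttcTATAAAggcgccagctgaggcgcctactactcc
Dusp1, chr17:26508473-26508722, minus strand: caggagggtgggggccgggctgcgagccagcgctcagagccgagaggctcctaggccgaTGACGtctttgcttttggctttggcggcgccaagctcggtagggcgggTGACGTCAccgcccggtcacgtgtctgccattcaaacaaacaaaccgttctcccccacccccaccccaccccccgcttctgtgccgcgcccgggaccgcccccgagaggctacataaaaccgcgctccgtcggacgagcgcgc
Zfp36, chr7:28379229-28379478, minus strand: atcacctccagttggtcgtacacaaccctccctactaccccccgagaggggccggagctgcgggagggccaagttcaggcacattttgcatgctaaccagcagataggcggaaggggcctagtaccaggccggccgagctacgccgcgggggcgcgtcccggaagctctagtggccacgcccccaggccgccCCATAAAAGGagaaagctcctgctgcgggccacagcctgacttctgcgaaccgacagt
Searched on both strands, TGACG was in 5 of the 8 promoters (Fos, Fosb, Junb, Dusp1 and Nr4a1), against 17.8% of 32851 promoters of the same length. Fos held it at 129 and 66 bases before the start and TATAAA at 33, which 12.4% of promoters held. TGACGTCA was in Dusp1 only, 143 bases before the start, against 1.55%, and the CArG box in Zfp36 only, 58 bases before it, against 1.47%. The AP-1 site TGAGTCA was in 0 of the 8 windows, against 4.46%, and GGGCGG, the GC box, in 6 of the 8, against 32.7%. A match describes the letters of the window only. Sequence further upstream was not searched, so a motif absent from a window may still lie outside it.

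The short life of these mRNAs is known to depend on AU-rich elements in the 3' untranslated region, which Zfp36 binds. The nonamer TTATTTATT was in the annotated 3' region of 3 of the 10 genes, 1 time in Fos, 2 times in Dusp1 and 1 time in Zfp36, against 5.95% of 21818 genes. One copy of each with its flanks (mm9, nonamer in capitals) is shown because Zfp36 carries the element that its own protein binds.
Fos, chr12:86818054-86818080, plus strand: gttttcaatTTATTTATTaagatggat
Dusp1, chr17:26643105-26643131, minus strand: agctggtccTTATTTATTtaacacccc
Zfp36, chr7:29161971-29161997, minus strand: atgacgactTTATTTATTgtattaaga
The 3 genes with the nonamer had log2 fold changes of -0.28, 0.03 and -0.23. Those of Fos and Zfp36 lay within the range of the other 7, from -0.51 to -0.10, and that of Dusp1 above it.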

How the data were processed

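Strand-specific libraries depleted of ribosomal RNA were sequenced as paired reads of 100 bp, per the labels' protocols. The submitters' processing notes name mm9, Bowtie2 2.1.0, TopHat2 2.0.8, HTSeq 0.5.4p1 and DESeq2 1.6.1. The use of strand in counting is not stated there. The authors deposited raw counts per gene and per splice junction for each library and, per the file headers, their own ratio (fold change), log2 fold change and p-values, used only where their table is named. A ratio or p-value of the authors carries no SD here.

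For gene counts edgeR 4.0.16 was run under R 4.3.3 (TMM, default filter, quasi-likelihood test, no block), and junction counts with edgeR's diffSpliceDGE. P-values are two-sided, with Benjamini-Hochberg adjustment over all features and a threshold of 0.05. Log2 CPM used a prior count of 0.5. Alternatives were DESeq2 1.42.0, limma 3.58.1, other scalings, no filter, at least 20 reads per junction, a replicate block and leaving out libraries. The replicates are pools of mice, and whether pools shared marrow donors is not given in the sources used here. On simulated counts edgeR recovered 24% of genes changed 1.5-fold, 78% at 2-fold and 100% at 4-fold among 13919 genes. Every gene was simulated with the same spread, lower than edgeR's coefficient of variation for each of the 10 genes but Junb and Ier2. That of Fosb was 50.1% and that of Egr1 38.8%, and recovery of genes with such spread was not simulated.

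The 10 genes and all lists were chosen with earlier results of these data known. Named were all 10 genes, from each list the 2 most abundant and up to 4 of lowest unadjusted p under 0.05, and the 8 genes most like the 10. A gene that this rule would name is not reported here. Marker lists of 6 other cell types are given by library beside the pattern. The remaining lists summed, over the 6 libraries, to 70.2 to 163 CPM (Sca-1 and Fc receptor), 65.7 to 88.0 (stem cell), 247 to 318 (erythroid), 23.9 to 30.7 (B cell) and 40.4 to 72.2 (T and NK cell). Of these, only the stem cell list did not overlap between genotypes, with 65.7 to 71.0 CPM in S34F and 73.7 to 88.0 in WT. Genome sequence came from NCBI build 37, which corresponds to mm9, and coordinates count from 1.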

Additional observations from a re-analysis of the deposited data

How the results depend on the processing

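Of 150 values of the 10 genes under alternative settings, 135 kept their direction. Dusp1, at 0.03 in edgeR, was at -0.030 in limma, -0.041 with edgeR and the replicate block and -0.039 with DESeq2 and the block, and between -0.21 and 0.32 without 1 library. Without 1 library, Fosb ran from -0.96 to 0.50, Egr1 from -0.63 to 0.42, Zfp36 from -0.48 to 0.25 and Nr4a1 from -0.57 to 0.0010, and Zfp36 was at 0.0075 without both replicate 1 libraries. Over all genes, DESeq2 called 96, edgeR with the replicate block 5, DESeq2 with the block 440, and edgeR without 1 library 0 to 1172 or without both replicate 1 libraries 599, against 0. Of the 10 genes, DESeq2 with the block called 1, Jund, at adjusted p = 0.0454, and no other setting called any. With the block, edgeR had 4 of the 10 (Jun, Junb, Jund and Ier2) at an unadjusted p under 0.05, beside 12.7% of all genes. Without it there were 2, beside 9.1% of all genes. Same-numbered libraries correlated in their deviations at 0.193, 0.263 and 0.0126, and differently numbered ones at -0.268 to 0.0726. The replicate 1 libraries were male in both genotypes. With the block, edgeR's standard error was lower for each of the 10 genes, for example 0.24 against 0.60 for Fosb. The main fit did not take the numbers as pairs, and whether libraries of the same number share a source was not tested. Junctions called numbered 136 with limma, 6 with at least 20 reads in every library and 108 to 368 without 1 library (368 without WT replicate 1), against 82, and 0 of these genes' junctions in each. The causes were not tested. Nr4a1, with 166 to 824 counts a library, had the lowest counts of the 10.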

Other observations

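The junction rows of Jun and Jund were not GT-AG introns, although the annotation lists each as an intron of a second transcript of a gene that its main transcript gives as 1 exon. The Jund row skipped 99 nt of coding sequence, a whole number of codons (33), at chromosome 8, 73223366 to 73223464 (mm9), with CC as its first and CG as its last bases. The skipped stretch was 73.7% G and C. A repeat of 6 bases stood at both of its ends, in capitals here with the bases around it, in the direction of transcription, and shown because it stands where the letters of a splice site would be.
Jund left end: caggagttCGCCGAaggcttcg
Jund right end: cccgcgccCGCCGAcctggccg
This row had 58, 35 and 69 reads in S34F and 132, 83 and 180 in WT. Per gene read this was 0.00760 ± 0.000772 in S34F and 0.00906 ± 0.00221 in WT (mean ± SD, n = 3; exact permutation p = 0.4). The Jun row skipped 87 nt of the 5' untranslated region, between copies of a repeat of 5 bases, at chromosome 4, 94718543 to 94718629. It had 124, 68 and 108 reads in S34F and 132, 153 and 217 in WT, or 0.00282 ± 0.000148 and 0.00250 ± 0.000224 per gene read (exact permutation p = 0.2). For both rows the reads per gene read overlapped between genotypes.

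Junctions that skip an exon were rare in Fos and Dusp1. The Fos junction from exon 1 to exon 3 had 0, 2 and 10 reads in S34F and 7, 2 and 8 in WT, and the Dusp1 junction that skips exon 2 had 1, 2 and 5 reads in S34F and 7, 3 and 14 in WT. As a share of the reads at the same acceptor they came to 0.222% ± 0.243 and 0.884% ± 0.591 in S34F and 0.145% ± 0.0747 and 1.19% ± 0.423 in WT, with overlap between genotypes.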
